A study of Mus musculus with 12 samples.

Results

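The proteasome genes described here are 49 genes whose symbols start with Psma, Psmb, Psmc, Psmd, Psme, Psmf or Psmg followed by a number, together with Pomp. Pseudogenes were left out, and a gene needed a mean level of at least 1 over the 12 libraries, in counts scaled to a common library size (CPM). They are 49 of the 55385 genes in the deposited tables. The names matched 51 genes. The 2 genes left out by level were Psma8, a ring subunit of germ cells, at 0.0379 CPM, and Psmb11, a subunit of the thymus, at 0.0571 CPM. The lowest genes inside the limit were Psmb9 at 1.86 CPM and Psmc3ip at 2.38 CPM. Psmc3ip matches by name alone, since it encodes a meiotic recombination factor and no proteasome subunit, and it stays in the counts below. Psme2b is an intronless copy of Psme2, and reads that mapped to both were not counted, so both could be undercounted.

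RNA was measured in satellite cells, which are muscle stem cells, taken fresh from hindlimb muscle of C57BL/6J mice and frozen in liquid nitrogen. The groups were 3 female Keap1 knockout (KO) libraries, 3 female heterozygous (Het) libraries, 3 male KO libraries and 3 male Het libraries. None of the 12 libraries came from a wild type animal, so every group was changed at Keap1, and the label "heterogeneous" of the controls was taken to mean heterozygous. Age, the nature of the Keap1 allele and any Cre driver are not given in the sources used here. The number in each label was read as an animal number. Nothing else states that libraries came from separate animals, so the p-values measure the spread between these libraries. The stated question was how the Keap1 and NRF2 pair acts on the maintenance and activation of these cells in each sex.

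The proteasome is the barrel-shaped protease that degrades proteins tagged with ubiquitin. Its 20S core is made of rings of alpha subunits around rings of beta subunits, and Psmb5, Psmb6 and Psmb7 encode the beta subunits with proteolytic sites. The 19S cap, with an ATPase base and a lid, binds, unfolds and deubiquitinates substrates. KEAP1 is the adaptor through which NRF2 is ubiquitinated and sent to this protease. NRF2, encoded by Nfe2l2, and the related factor NRF1, encoded by Nfe2l1, bind antioxidant response elements, and both have been described as activators of proteasome genes in other mouse cells. In mouse satellite cells, loss of the base ATPase encoded by Psmc4 is known to deplete the stem cell pool.

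The promoters of Psmb5 and Psmb6 are shown because these catalytic genes had the smallest p-values of the family in females, with opposite signs. Each sequence is the RefSeq promoter window of 300 bases on GRCm38.p6, running from 250 bases before to 50 bases after the gene start, 5′ to 3′ on the strand of the gene. Psmb5 lies on the minus strand at chr14:54617946-54618245 and Psmb6 on the plus strand at chr11:70525107-70525406. Capitals mark the core of the antioxidant response element, TGACNNNGC.
Psmb5: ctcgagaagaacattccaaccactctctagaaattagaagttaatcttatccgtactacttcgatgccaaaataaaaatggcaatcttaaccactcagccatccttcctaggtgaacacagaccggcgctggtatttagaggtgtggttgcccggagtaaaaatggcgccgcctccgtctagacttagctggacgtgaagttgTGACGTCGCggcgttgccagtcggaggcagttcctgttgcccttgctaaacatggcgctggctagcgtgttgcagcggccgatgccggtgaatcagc
Psmb6: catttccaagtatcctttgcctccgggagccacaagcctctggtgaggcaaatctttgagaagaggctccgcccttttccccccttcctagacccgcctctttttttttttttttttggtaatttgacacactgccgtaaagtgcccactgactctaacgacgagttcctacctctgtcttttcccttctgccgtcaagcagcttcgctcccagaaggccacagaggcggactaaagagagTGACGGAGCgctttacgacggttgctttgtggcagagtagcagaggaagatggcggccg
The match starts at position -47 in Psmb5 and at position -9 in Psmb6, counted from the gene start. The core, searched on both strands, was present in the windows of 6 of the 42 proteasome genes with a RefSeq window, which is 14.3%. The other 4 genes were Psmc6, Psmd9, Psmd12 and Psme4. It was present for 3781 of 27025 genes with any window, which is 13.99%, so the family's share was near that of all genes. A match of letters is a description and not evidence of binding.

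Library totals ran from 13042039 to 19273245 counts, and the 49 genes took 0.536 to 0.778% of them. Each sex was deposited as a table of its own, so sex and table cannot be told apart. Keap1 had 11.9, 12.95 and 11.02 CPM in female KO libraries, against 9.56, 7.18 and 7.95 CPM in female Het libraries, and 6.30, 7.74 and 7.70 CPM in male KO libraries, against 9.78, 5.33 and 8.08 CPM in male Het libraries. Exact permutation p-values were 0.1 in females, the smallest that 3 against 3 allows, and 0.8 in males. A count over the whole gene does not check a deletion of part of it. Nqo1, a textbook NRF2 target, was 20.8-fold higher in KO libraries of females and 9.63-fold higher in those of males, with no overlap of KO and Het libraries. All 10 satellite cell markers were detected in each group, and Pax7, which defines these cells, ranged from 10.1 to 30.0 CPM. Summed over the 10 markers, the level was 9203 to 11762 CPM in female KO and 13468 to 15190 CPM in female Het libraries, which did not overlap, and 20112 to 21473 CPM in male KO and 17774 to 21524 CPM in male Het libraries, which did. Sdc4 held the largest part of the female sums, with means of 4873 CPM in KO and 7269 CPM in Het libraries. In females 1 of 10 was called, Musk, lower in KO at -0.71 on the log2 scale (edgeR adjusted p = 0.0463), where 0.983% of all genes were called lower, and 4 of 10 had an unadjusted p under 0.05, where 17.9% of all genes did. In males 0 of 10 were called, and 2 had an unadjusted p under 0.05, where 12.4% of all genes did. Median log2 fold changes of the markers were -0.41 in females and 0.04 in males. In females Cdh15 at 0.51 and Itga7 at 0.17 were above 0 and Pax7 was at -0.06. The other markers ran from -0.71 for Musk to -0.33 for Chodl in females. Mitochondrial ribosomal RNA took 0.733 to 1.03% of counts in female KO libraries and 0.302 to 0.507% in female Het libraries, and 0.226 to 0.407% in male KO libraries and 0.409 to 0.601% in male Het libraries. The part of the satellite cell markers and of this RNA in the results below was not tested.

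Levels of the 49 genes were compared with each other in TPM, which divides by gene length, taken as all annotated exonic bases. That length ran from 555 bases for Psmg4 to 8382 bases for Psme4, so the ranking depends on the annotation as well as the counts. For example, Psmg4 at a mean of 17.8 CPM had 103 TPM, and Pomp at 81.3 CPM had 50.4 TPM. Over the 12 libraries the mean ran from 1.64 TPM for Psmb9 to 705 TPM for Psmb2. The constitutive complex was high throughout, with a median of 171 TPM for the 7 alpha subunits, 187 TPM for the 7 beta subunits, 269 TPM for the 9 base genes and 205 TPM for the 8 lid genes. The group of 6 activator and inhibitor genes had a median of 43.3 TPM, the 5 assembly factors of the core 26.7 TPM and the 3 assembly factors of the base 16.8 TPM. The 3 immunoproteasome genes had a median of 8.63 TPM. Among activators the level of Psme3, the nuclear activator of the PA28 family, was 297 TPM, above Psme2 at 122.5 TPM and Psme1 at 63.7 TPM. Variation among libraries was small for most genes: the ratio of the highest to the lowest CPM over 12 libraries ran from 1.23 for Psmc6 to 4.68 for Psmb9, with a median of 1.76. The widest ratios belonged to the least abundant genes, Psmb9 with 13 to 61 counts per library among them.

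**Figure D1:**
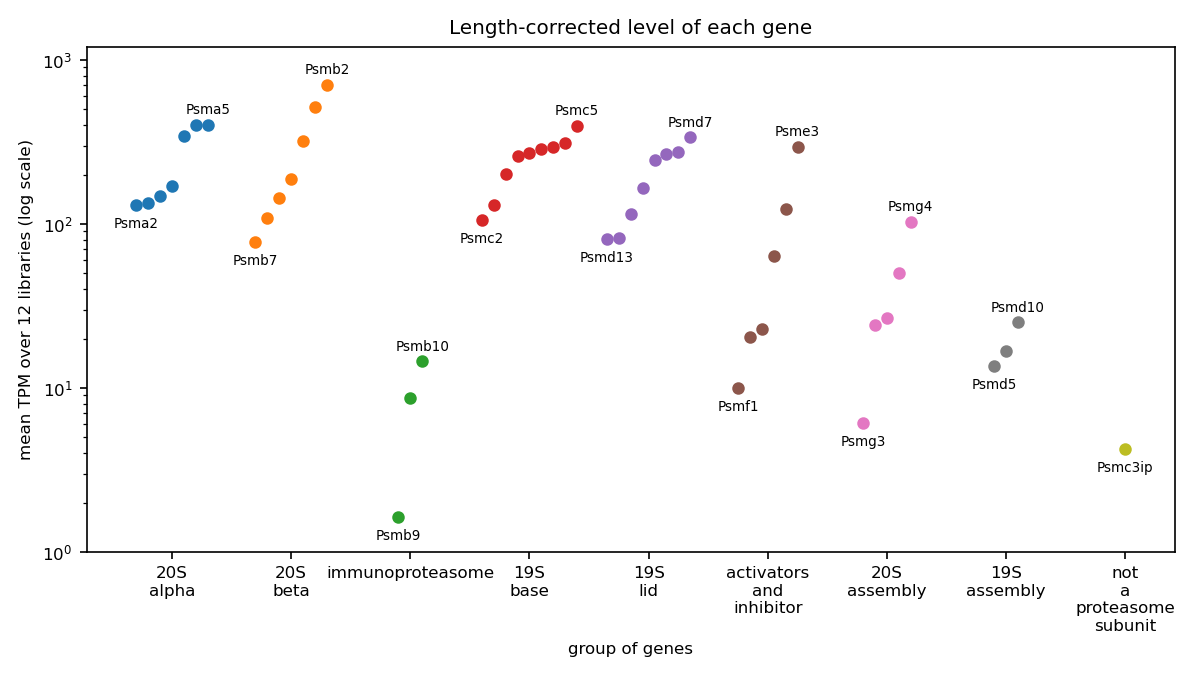
Mean level of each of the 49 genes over the 12 libraries in TPM (vertical log axis), by group of genes (horizontal axis), with the lowest and highest gene of each group named. Core and cap genes lie between 77.7 and 705 TPM, and the 3 immunoproteasome genes between 1.64 and 14.6 TPM.

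No proteasome gene passed the test between KO and Het libraries in either sex. With edgeR's quasi-likelihood test, adjusted over all genes tested at a threshold of 0.05, 0 of the 49 genes were called in females, where 2.27% of all 14036 genes were called. In males 0 of 49 were called, where 0.861% of all 13361 genes were called. For the average over the sexes 0 of 49 were called, where 3.41% of all genes were called. For the difference between the female and the male change 0 of 49 were called, where 0.00677% of all genes were called. At an unadjusted p under 0.05 the family had 6 genes in females (17.9% of all genes), 2 in males (12.4%), 4 for the average (17%) and 5 for the difference (12.4%). Those in females were Psmb5, higher in KO, and Psmb2, Psmb6, Psmc4, Psmd12 and Psmc3ip, lower in KO. Those in males were Psmb7 and Psmd9, both lower in KO, and those for the average were Psmb6, Psmb8, Psmc4 and Psmd9, all lower in KO. DESeq2 called 1 gene in females, Psmb6, at an adjusted p of 0.0364, and 0 in the other comparisons, and limma voom called 0 in each. The shares of all genes called by DESeq2 and limma voom are not given here, so these counts have no background to be read against. CPM shows a gene's share of the RNA, so fewer cells of a type and less of the transcript per cell cannot be told apart.

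The 95% intervals put bounds on what was not called. In females the interval of 47 of 49 genes lay inside 2-fold either way, against 65.8% of all genes, and that of 36 genes lay inside 1.5-fold, against 30.8% of all genes. The exceptions at 2-fold were Psmb9 and Psmc3ip. In males 48 of 49 intervals lay inside 2-fold, against 72.4% of all genes, Psmc3ip being the exception, and 35 lay inside 1.5-fold, against 38.5% of all genes. Narrow intervals go with high counts, and most of the family is abundant. The median log2 fold change of the family, KO over Het, was -0.08 in females (0.00 over all genes) and -0.08 in males (0.01 over all genes). Single genes ran from -0.78 for Psmc3ip to 0.50 for Psmb5 in females, and from -0.39 for Psme3 to 0.34 for Psmd10 in males.

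**Figure D2:**
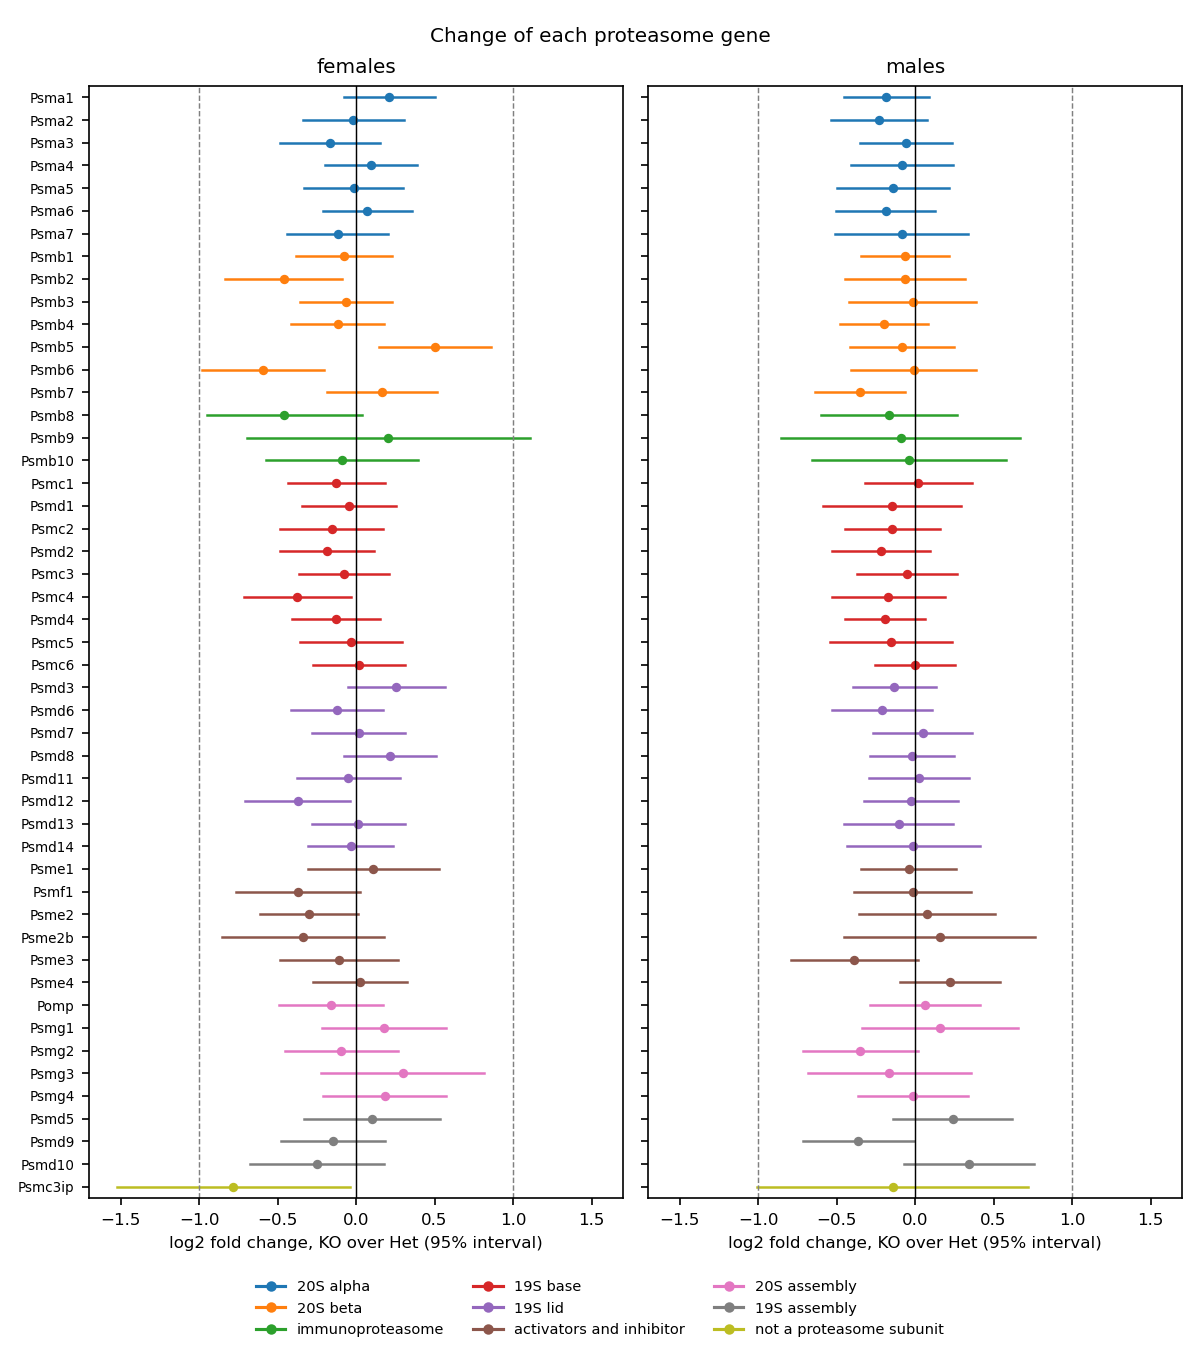
Log2 fold change of each gene, KO over Het, with its 95% interval (horizontal axis), for females (left) and males (right), genes coloured by group. Dashed lines mark 2-fold either way. Psmb5 at 0.50 and Psmb6 at -0.59 stand on opposite sides in females, and neither was called.

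Summed over the 49 genes, the level was 6567, 6845 and 6829 CPM in female KO libraries, against 7908, 6182 and 7534 CPM in female Het libraries. In males it was 6365, 7943 and 5499 CPM in KO libraries, against 6801, 7081 and 7310 CPM in Het libraries. Means were 6747 ± 156 CPM in female KO and 7208 ± 908 CPM in female Het libraries, and 6602 ± 1239 CPM in male KO and 7064 ± 254.8 CPM in male Het libraries (SD, n = 3 each), so the genotypes differed by less than the wider of the SDs in each sex. The male KO libraries held both the highest and the lowest sum of the 6 male libraries, and female Het libraries both extremes of the 6 female libraries. Male KO247 was the highest of 6 for 30 of 49 genes, or 61.2%, against 17.6% of all genes tested in males. Male KO255 was the lowest of 6 for 38 of 49 genes, or 77.6%, against 19.4% of all genes. In females, Het164 was the highest for 22 genes, or 44.9%, and Het165 the lowest for 22, or 44.9%, against 17.2% and 14.7% of all genes. Within a genotype, many of the genes were thus high or low in the same library.

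**Figure D3:**
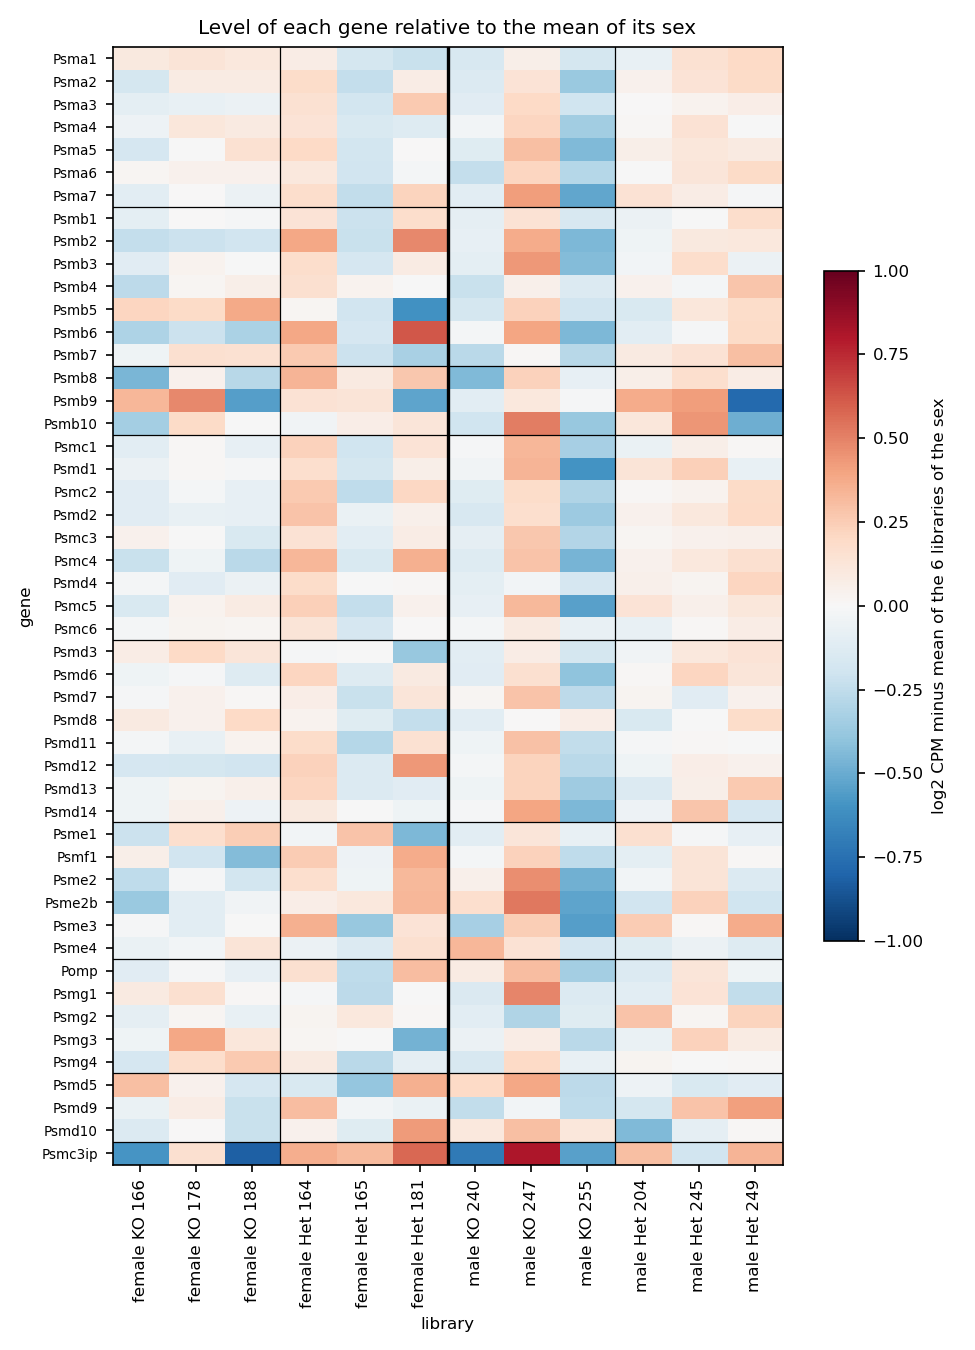
Level of each gene (rows) in each library (columns) as log2 CPM minus the mean of the 6 libraries of that sex, from blue (lower) to red (higher). Male KO247 is red and male KO255 blue over most rows, with median deviations of 0.23 and -0.27, while female Het164 stands at 0.16 and female Het165 at -0.16.

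In males 39 of 49 genes had a log2 fold change below 0, or 79.6%, against 48.3% of all genes, and this count rested on male KO255. Without that library it was 20 of 49, or 40.8%, and the family's median was 0.03. Without male KO247 it was 46 of 49, with a median of -0.24. In females 32 of 49 genes were below 0, or 65.3%, against 49.5% of all genes. That count was 25 without female Het164 and 38 without female Het165, with medians of 0.00 without female Het164 and -0.14 without female Het165. KO and Het libraries did not overlap for 12 of 49 genes in females, 5 higher and 7 lower in KO, against 22.3% of all genes, 11.9% higher and 10.4% lower. They did not overlap for 4 of 49 genes in males, 1 higher and 3 lower in KO, against 17% of all genes, 9.24% higher and 7.76% lower. The family's share was near that of all genes in females and below it in males.

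The 7 alpha subunits, which form the outer rings of the core and its gate, differed by little between genotypes. Their log2 fold changes ran from -0.16 to 0.21 in females and from -0.23 to -0.06 in males, and 0 of 7 had an unadjusted p under 0.05 in either sex. Psma1 had the smallest p of the alpha genes in females. It had 152, 155 and 153 CPM in female KO libraries, against 150.2, 126 and 122 CPM in female Het libraries. The groups did not overlap, though female Het164 stood close below the KO libraries, and the log2 fold change was 0.21 (95% interval -0.08 to 0.50, edgeR adjusted p = 0.428). In males Psma1 had 113.5, 132.5 and 112.7 CPM in KO libraries, against 121, 141.5 and 146 CPM in Het libraries, which overlapped. Psma2 had the smallest p of the group in males, with 127, 154 and 108 CPM in KO libraries, against 144, 153 and 159 CPM in Het libraries and a log2 fold change of -0.23 (adjusted p = 0.579). Male KO247 lay among the Het libraries, and male KO255 was the lowest. Psma3, one of the most abundant members, had 429.9, 439 and 443 CPM in female KO libraries, against 511, 407 and 552 CPM in female Het libraries, and its log2 fold change was -0.16 (edgeR adjusted p = 0.598).

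**Figure D4:**
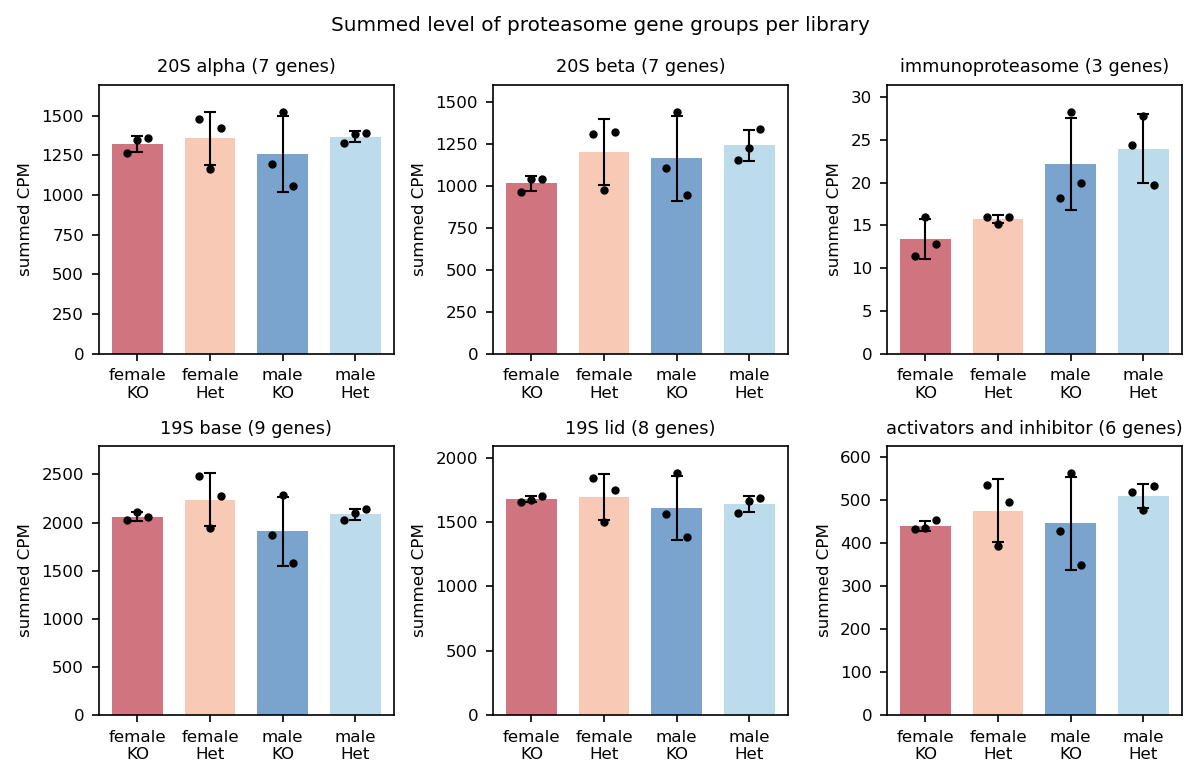
Summed CPM of 6 groups of proteasome genes (vertical axes from 0) in female KO, female Het, male KO and male Het libraries. Bars are means of 3 libraries, error bars are SD and points are libraries. In the base, female KO sums lie between 2024 and 2108 CPM and female Het sums between 1940 and 2488 CPM, so the groups overlap.

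Among proteasome subunits the beta ring held the largest differences in females, and they ran in opposite directions. Psmb5, the chymotrypsin-like subunit and the target of bortezomib, had 63.3, 62.0 and 70.7 CPM in female KO libraries, against 55.2, 47.6 and 35.7 CPM in female Het libraries. All KO libraries lay above all Het libraries, and female Het181 was the lowest. The log2 fold change was 0.50 (95% interval 0.14 to 0.86), and the edgeR adjusted p of 0.145 missed the threshold. In males the values were 42.4, 55.9 and 41.8 CPM in KO libraries, against 42.9, 51.7 and 54.2 CPM in Het libraries, with a log2 fold change of -0.08 (interval -0.41 to 0.25). The groups overlapped in males. The difference between the sexes for Psmb5 was 0.59 on the log2 scale, female minus male change (interval 0.10 to 1.08, edgeR adjusted p = 0.321). Of its exonic bases 12.1% overlap the microRNA gene Mir686, and fragments were counted without strand.

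Psmb6, the caspase-like subunit, had 213, 226 and 211 CPM in female KO libraries, against 343, 234 and 405 CPM in female Het libraries. The groups did not overlap, but female Het165 lay close above the highest KO library. The log2 fold change was -0.59 (interval -0.98 to -0.20, edgeR adjusted p = 0.119). DESeq2 gave -0.60 with an adjusted p of 0.0364, and edgeR without the filter on low counts an adjusted p of 0.00906. Over 12 alternatives the adjusted p of Psmb6 in females ran from 0.00442, without female Het165, to 0.347. In males Psmb6 had 326, 435 and 242 CPM in KO libraries, against 307.5, 329 and 378 CPM in Het libraries, with male KO247 and male KO255 at both ends and a log2 fold change of -0.01. The difference between the sexes was -0.58 (interval -1.18 to 0.02, edgeR adjusted p = 0.416).

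**Figure D5:**
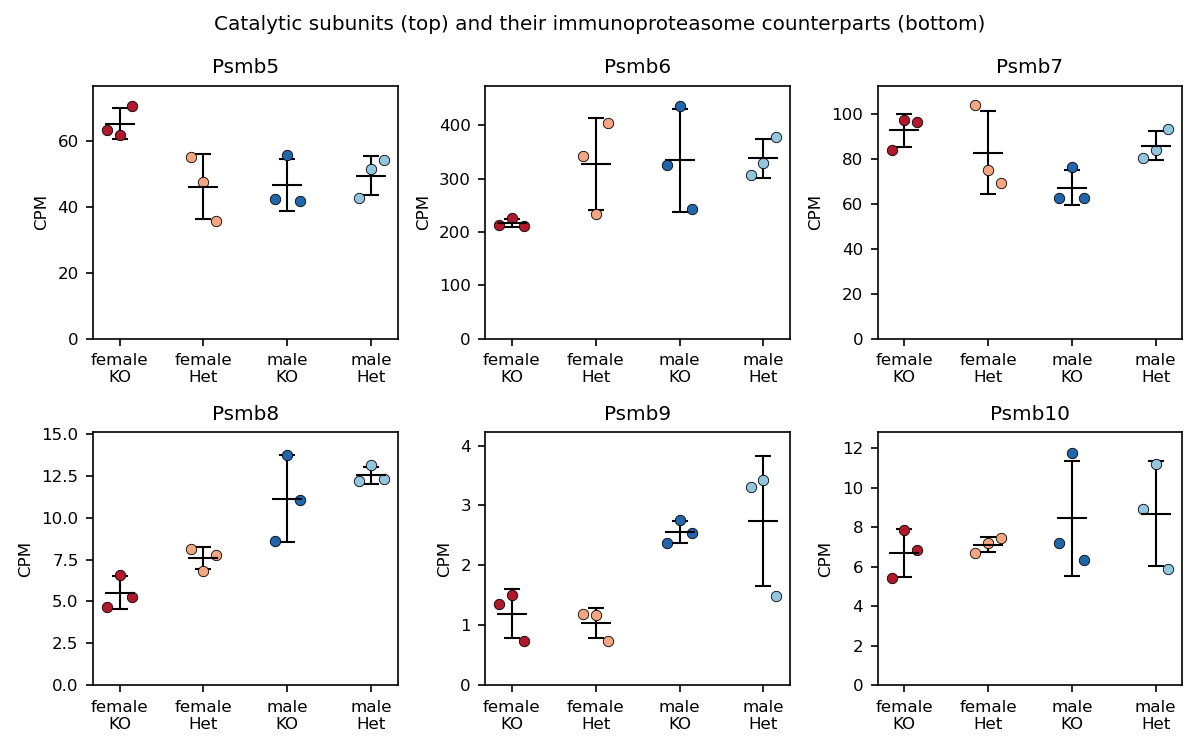
CPM (vertical axes from 0) of the catalytic subunits Psmb5, Psmb6 and Psmb7 (top) and their immunoproteasome counterparts Psmb8, Psmb9 and Psmb10 (bottom) in the 4 groups. Points are libraries, horizontal bars means and error bars SD of 3 libraries. In females the KO libraries lie above the Het libraries for Psmb5 and below them for Psmb6 and Psmb8.

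Psmb2, a structural beta subunit, resembled Psmb6 in its library pattern. It had 205, 208 and 211 CPM in female KO libraries, against 316, 208 and 338 CPM in female Het libraries. Female Het165 lay among the KO libraries, while the other Het libraries were higher, and the log2 fold change was -0.46 (edgeR adjusted p = 0.195). Psmb7, the trypsin-like subunit, had 84.2, 97.2 and 96.6 CPM in female KO libraries, against 103.9, 75.0 and 69.5 CPM in female Het libraries, which overlapped. In males it had 62.8, 76.2 and 62.7 CPM in KO libraries, against 80.6, 83.8 and 93.3 CPM in Het libraries. All male KO libraries were lower than all male Het libraries, and the log2 fold change was -0.35 (interval -0.63 to -0.07, edgeR adjusted p = 0.290), the smallest adjusted p of the family in males. The difference between the sexes for Psmb7 was 0.52 (interval 0.07 to 0.97, edgeR adjusted p = 0.340). Of its exonic bases 11.8% overlap Nek6. Psmb1, Psmb3 and Psmb4, which carry no active site, had log2 fold changes between -0.12 and -0.06 in females and between -0.20 and -0.02 in males, and their groups overlapped in both sexes. Psmb4 had the lowest of these in males, with 183, 221 and 195 CPM in KO libraries, against 220, 211 and 260 CPM in Het libraries (edgeR adjusted p = 0.597).

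The immunoproteasome subunits replace the catalytic subunits in immune cells and under interferon, Psmb8 in place of Psmb5, Psmb9 of Psmb6 and Psmb10 of Psmb7. Psmb8 had 4.66, 6.60 and 5.28 CPM in female KO libraries, against 8.11, 6.84 and 7.74 CPM in female Het libraries. The groups did not overlap, by a small margin between female KO178 and female Het165, and the log2 fold change was -0.46 (interval -0.95 to 0.04, edgeR adjusted p = 0.316). In males Psmb8 had 8.61, 13.8 and 11.05 CPM in KO libraries, against 12.2, 13.1 and 12.3 CPM in Het libraries, which overlapped. For Psmb8, 14.7% of exonic bases overlap Gm20496. Psmb9 had 1.35, 1.499 and 0.731 CPM in female KO libraries, against 1.18, 1.17 and 0.742 CPM in female Het libraries, and its interval in females ran from -0.70 to 1.11, too wide to place it. In males Psmb9 had 2.38, 2.75 and 2.54 CPM in KO libraries, against 3.31, 3.42 and 1.49 CPM in Het libraries. Psmb10 had 5.43, 7.85 and 6.86 CPM in female KO libraries, against 6.72, 7.18 and 7.48 CPM in female Het libraries, and 7.21, 11.8 and 6.36 CPM in male KO libraries, against 8.93, 11.2 and 5.91 CPM in male Het libraries. Both comparisons of Psmb10 overlapped.

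Set against its counterpart per length, Psmb8 made up 1.92, 2.75 and 1.95% of the sum of Psmb8 and Psmb5 in female KO libraries, against 3.76, 3.68 and 5.45% in female Het libraries. The means were 2.21 ± 0.472% in KO and 4.30 ± 1.002% in Het libraries (SD, n = 3 each), with no overlap. The two-sided exact permutation p was 0.1, the smallest this design allows, and 0.6 after adjustment over the 6 tests of this kind. In males the share was 5.95 ± 0.741% in KO and 6.35 ± 0.655% in Het libraries (SD, n = 3 each, exact permutation p = 0.5). Psmb9 made up 0.279 ± 0.0890% of its pair in female KO and 0.175 ± 0.0809% in female Het libraries, and 0.410 ± 0.111% in male KO and 0.426 ± 0.195% in male Het libraries. Psmb10 made up 12.6 ± 1.25% of its pair in female KO and 15.1 ± 3.26% in female Het libraries, and 19.8 ± 3.48% in male KO and 16.9 ± 5.08% in male Het libraries. Length here means all exonic bases of a gene, 3381 for Psmb8 and 899 for Psmb5. It was 3660 for Psmb9 and 1872 for Psmb6, and 1705 for Psmb10 and 3421 for Psmb7. Each share depends on these lengths, so shares of different pairs are not directly comparable, while KO and Het libraries share the same lengths. The summed level of 15 leukocyte and macrophage markers was 55.8 to 84.9 CPM in female KO and 123 to 187 CPM in female Het libraries, and 80.3 to 115 CPM in male KO and 43.1 to 146 CPM in male Het libraries. Cd74 held the largest part of the female sums, with means of 22.8 CPM in KO and 61.8 CPM in Het libraries. Of 13 tested in females, 3 were called lower in KO, Cd74, Lyz2 and H2-Ab1, and 0 higher, where 0.983% of all genes were called lower. Csf1r was above 0 in females at 0.26, and the other tested markers ran from -1.51 for H2-Ab1 to -0.52 for H2-Eb1. None of the 15 was at 0 over a whole group, though Itgam and Cd3e were under 0.4 CPM in every library. Their part in the Psmb8 values was not tested.

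In the 19S base, the ring of ATPases and scaffolds that opens the core and unfolds substrates, 8 of 9 genes had log2 fold changes below 0 in each sex, with medians of -0.13 in females and -0.15 in males, where 49.5% of all genes were below 0 in females and 48.3% in males. The male count rested on male KO255: without it 4 of 9 were below 0, with a median of 0.04, where 50.5% of all genes were below 0. In females 6 of 9 were below 0 without female Het164. Psmc4, an ATPase of this ring, had 152, 172 and 147 CPM in female KO libraries, against 224, 160.3 and 228 CPM in female Het libraries. Female Het165 lay among the KO libraries, and the log2 fold change was -0.37 (interval -0.71 to -0.03, edgeR adjusted p = 0.238). In males Psmc4 had 163, 218 and 129 CPM in KO libraries, against 184, 192 and 199 CPM in Het libraries, with a log2 fold change of -0.17. Psmd4, which binds ubiquitin chains, was the only member whose KO and Het libraries did not overlap in the same direction in both sexes. It had 220, 207 and 215 CPM in female KO libraries, against 254, 223 and 225 CPM in female Het libraries, and 215.5, 226 and 204.5 CPM in male KO libraries, against 238.5, 235 and 267 CPM in male Het libraries. The gap was small, with log2 fold changes of -0.13 in females and -0.19 in males and an adjusted p of 0.333 by edgeR for their average, -0.16. Psmd2, a scaffold, had 360.1, 369 and 368 CPM in female KO libraries, against 475, 372 and 402.5 CPM in female Het libraries, a log2 fold change of -0.19. In males Psmd2 had 345, 432.5 and 299.9 CPM in KO libraries, against 398, 415.5 and 443 CPM in Het libraries, a log2 fold change of -0.22. Psmc6, another ATPase, was the steadiest member, at 314, 324 and 322 CPM in female KO libraries, against 348, 283 and 318 CPM in female Het libraries, with log2 fold changes of 0.02 in females and 0.00 in males. The other base genes, Psmc1, Psmc2, Psmc3, Psmc5 and Psmd1, had log2 fold changes between -0.16 and -0.03 in females and between -0.15 and 0.02 in males, and their genotypes overlapped.

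In the lid, which removes ubiquitin, 4 of 8 genes were above and 4 below 0 in females, and 2 above and 6 below in males. Over all genes 49.5% were below 0 in females and 48.3% in males. Without male KO255, 5 lid genes were above and 3 below 0 in males, where 50.5% of all genes were below 0. In females 2 of 8 were below 0 without female Het164, and 6 of 8 without female Het165. Psmd12 had 186, 185 and 183 CPM in female KO libraries, against 245.1, 190.0 and 282 CPM in female Het libraries. The KO libraries were nearly equal, and female Het165 lay close above them. The log2 fold change was -0.37 (interval -0.71 to -0.04, edgeR adjusted p = 0.234), against -0.02 in males. Psmd3 had 138, 150.1 and 142 CPM in female KO libraries, against 129.5, 130.1 and 100.5 CPM in female Het libraries. Its groups did not overlap and its log2 fold change was 0.26 (edgeR adjusted p = 0.364), while in males, with 112, 126 and 106 CPM in KO libraries, against 117, 129 and 132 CPM in Het libraries, they overlapped, at -0.13. Psmd8 had 290.5, 282 and 315 CPM in female KO libraries, against 280.1, 251 and 232 CPM in female Het libraries, a log2 fold change of 0.22 (edgeR adjusted p = 0.424). Psmd14, the deubiquitinase of the lid, had 103, 110.0 and 103 CPM in female KO libraries, against 114, 106 and 103 CPM in female Het libraries, and a log2 fold change of -0.03. In males Psmd14 stood at 90.2, 119.6 and 66.5 CPM in KO libraries, against 87.9, 110.3 and 81.0 CPM in Het libraries, and the male KO libraries spanned the Het libraries. The remaining lid genes, Psmd6, Psmd7, Psmd11 and Psmd13, had log2 fold changes between -0.12 and 0.02 in females and between -0.21 and 0.05 in males. Psmd6 had the lowest of these in males, with 116, 140 and 94.8 CPM in KO libraries, against 126, 145 and 136 CPM in Het libraries, which overlapped (edgeR adjusted p = 0.626).

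The activators replace the cap at the ends of the core. Psme1 and Psme2 encode the interferon-responsive PA28 heteromer. Psme1 had 37.0, 48.3 and 51.0 CPM in female KO libraries, against 42.2, 52.5 and 31.5 CPM in female Het libraries, and 40.0, 46.8 and 40.8 CPM in male KO libraries, against 48.2, 42.7 and 40.7 CPM in male Het libraries. Psme2 had 50.5, 59.7 and 53.1 CPM in female KO libraries, against 67.6, 58.4 and 75.2 CPM in female Het libraries, with a log2 fold change of -0.30 (edgeR adjusted p = 0.297). Psme2b, the intronless copy, had 3.65, 4.38 and 4.61 CPM in female KO libraries, against 4.94, 5.08 and 5.94 CPM in female Het libraries, a log2 fold change of -0.34 (edgeR adjusted p = 0.487). In males Psme2 had 75.3, 100.3 and 51.9 CPM in KO libraries, against 71.1, 79.5 and 65.9 CPM in Het libraries. Neither partner of the heteromer separated the genotypes in either sex. Psme3 had 216, 322.5 and 186 CPM in male KO libraries, against 324, 274 and 351 CPM in male Het libraries, and the lowest log2 fold change of the family in males, -0.39 (interval -0.79 to 0.02, edgeR adjusted p = 0.428). Male KO247 lay among the Het libraries. Without it the log2 fold change of Psme3 was -0.65 with an edgeR adjusted p of 0.0465, and over 12 alternatives the adjusted p ran up to 0.815. In females Psme3 had 260.0, 243.5 and 261 CPM in KO libraries, against 336, 201 and 288 CPM in Het libraries. Psme4, which encodes PA200, had 71.0, 62.5 and 50.2 CPM in male KO libraries, against 51.9, 54.3 and 51.5 CPM in male Het libraries, a log2 fold change of 0.22 (edgeR adjusted p = 0.606). Psmf1, which encodes the inhibitor PI31, had 21.5, 18.0 and 15.2 CPM in female KO libraries, against 24.5, 19.9 and 26.6 CPM in female Het libraries, a log2 fold change of -0.37 (edgeR adjusted p = 0.308).

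Assembly factors guide the rings together and leave, or are degraded, once the core is complete. Pomp, the maturation factor of the core, had 80.0, 85.7 and 81.5 CPM in female KO libraries, against 96.8, 72.5 and 106.9 CPM in female Het libraries, and 78.8, 92.3 and 58.9 CPM in male KO libraries, against 67.6, 80.8 and 72.4 CPM in male Het libraries. The genotypes overlapped in both sexes, with log2 fold changes of -0.16 in females and 0.06 in males. Psmg1, an alpha ring chaperone, had 11.8, 12.4 and 11.1 CPM in female KO libraries, against 10.96, 9.23 and 11.03 CPM in female Het libraries, which did not overlap. In males Psmg1 had 7.91, 12.3 and 7.97 CPM in KO libraries, against 8.16, 9.65 and 7.40 CPM in Het libraries, which overlapped, a log2 fold change of 0.16 (edgeR adjusted p = 0.842). Its partner Psmg2 had 13.7, 11.99 and 13.5 CPM in male KO libraries, against 17.9, 14.98 and 17.2 CPM in male Het libraries, which did not overlap, and a log2 fold change of -0.35 (edgeR adjusted p = 0.433). Psmg3, the least abundant assembly factor, had 6.01, 8.09 and 6.69 CPM in female KO libraries, against 6.29, 6.15 and 4.45 CPM in female Het libraries, which overlapped, and Psmg4, another alpha ring chaperone, had log2 fold changes of 0.18 in females and -0.01 in males. Among base chaperones, Psmd10, which encodes gankyrin, had 11.1, 12.7 and 11.1 CPM in male KO libraries, against 7.55, 9.65 and 10.3 CPM in male Het libraries. All male KO libraries were higher, and the log2 fold change was 0.34 (edgeR adjusted p = 0.526). In females Psmd10 had 11.15, 12.29 and 10.51 CPM in KO libraries, against 12.62, 11.23 and 16.49 CPM in Het libraries, which overlapped, a log2 fold change of -0.25 (edgeR adjusted p = 0.539). Psmd9 had 27.4, 31.9 and 27.3 CPM in male KO libraries, against 28.8, 39.6 and 43.2 CPM in male Het libraries, a log2 fold change of -0.36 (edgeR adjusted p = 0.395). In females Psmd9 had 40.1, 44.1 and 35.9 CPM in KO libraries, against 52.0, 41.2 and 40.1 CPM in Het libraries, a log2 fold change of -0.15 (edgeR adjusted p = 0.647), and its genotypes overlapped in both sexes. Psmd5 had 31.7, 36.1 and 23.03 CPM in male KO libraries, against 26.7, 24.8 and 25.6 CPM in male Het libraries, and its genotypes overlapped. Psmc3ip had 1.25, 2.10 and 1.07 CPM in female KO libraries, against 2.42, 2.34 and 2.81 CPM in female Het libraries, a log2 fold change of -0.78 (interval -1.53 to -0.04, edgeR adjusted p = 0.258), and 21.2% of its exonic bases overlap Mlx. In males Psmc3ip had 1.61, 4.62 and 1.81 CPM in KO libraries, against 3.23, 2.30 and 3.33 CPM in Het libraries, which overlapped.

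The female and male changes were set against each other in the fit of all 12 libraries. The median of the 49 differences, female minus male, was 0.02, against -0.01 over all genes. The 5 genes with an unadjusted p under 0.05 were Psmb5, Psmb7, Psma1 and Psmd3, with positive differences of 0.59, 0.52, 0.40 and 0.39, and Psmd10 at -0.58. None passed adjustment over all genes (edgeR adjusted p from 0.321 to 0.392). Levels were also compared between the sexes without regard to genotype, 6 female against 6 male libraries, as a description. Psma4 and Psmd6 were higher in all female libraries than in any male library, and Psmb8 was lower in all. That is 2 and 1 of 49 genes, where 4.61% of all genes were higher and 5.1% lower. Psma4 had 103.5 to 126.7 CPM in females and 61.5 to 91.0 CPM in males. For Psmd6 the lowest female library, KO188 at 145.42 CPM, was nearly level with the highest male library, Het245 at 145.39 CPM. For Psmb8 the highest female library, Het164, had 8.11 CPM and the lowest male library, KO240, had 8.61 CPM.

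Partners of the proteasome were described from a list of 30 genes, of which 29 were in the tables. It held the transcription factors Nfe2l1 and Nfe2l2, the processing enzymes of NRF1, cap partners such as Adrm1 and Sem1, ubiquitin genes, shuttle factors and activating enzymes. With edgeR 0 of 29 were called in any comparison, with 7 at an unadjusted p under 0.05 in females (17.9% of all genes), 4 in males (12.4%), 6 for the difference (12.4%) and 5 for the average (17%). DESeq2 called Ubb in females and Zfand5 for the average, and limma voom called 0. For these tools the shares of all genes called are not given here. Median log2 fold changes of the 29 genes with edgeR were 0.11 in females and -0.10 in males. Ubb, a polyubiquitin gene, had the smallest p, with 1560, 1785 and 1481 CPM in female KO libraries, against 2425, 2105 and 4072 CPM in female Het libraries. Its libraries did not overlap in females, female Het181 stood apart as the highest, and the log2 fold change was -0.83 (edgeR adjusted p = 0.0788). Akirin2, which carries proteasomes into the nucleus, had 43.6, 43.3 and 52.1 CPM in female KO libraries, against 32.1, 37.2 and 28.1 CPM in female Het libraries, a log2 fold change of 0.51 (edgeR adjusted p = 0.119).

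Peptides made by the proteasome are loaded on class I molecules, and 17 genes of that route were described in the same way. With edgeR 0 of 17 were called in females, in males or for the difference, with 4 at an unadjusted p under 0.05 in females (17.9% of all genes), 3 in males (12.4%) and 2 for the difference (12.4%), and 4 for the average (17%). For the average over the sexes edgeR called 2 lower in KO, where 1.27% of all genes were. They were H2-K1 at -0.39 (edgeR adjusted p = 0.0484) and H2-D1 at -0.38 (adjusted p = 0.0448). DESeq2 called Pdia3 and H2-D1 in females, and Calr, H2-K1 and H2-D1 for the average. With limma voom H2-K1 and H2-D1 were called for the average, and 0 in the other comparisons. For these 2 tools the shares of all genes called are not given here. H2-D1 had 687, 836 and 753 CPM in female KO libraries, against 1085, 1087 and 1063 CPM in female Het libraries, and 1418, 1538 and 1717 CPM in male KO libraries, against 1939, 1522 and 2130 CPM in male Het libraries. H2-K1 and H2-D1 are close paralogs, and reads that mapped to both were not counted. Tap1, the peptide transporter encoded beside Psmb9, had a log2 fold change of 0.25 in females and -0.07 in males, and its libraries overlapped in both.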

How the data were processed

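Gene expression was measured in 12 libraries, 3 per group, grouped by the sex and genotype in the labels. Per the labels' protocols, cDNA was made by Smart-Seq2, without molecular identifiers, and fragmented with Tn5. The authors deposited whole fragment counts per gene, made per the file headers with featureCounts 2.0.0, without strand on Ensembl GRCm38 release 99, with reads mapped to several places not counted. No value that the authors deposited is an estimated count or needed rounding. The submitters' processing notes name STAR, Subread, DESeq2 and mm10, and versions of these tools are not given in the sources used here. Symbols came from GENCODE M21 for 55144 of the 55385 genes, and 241 had none. The tables held 0 columns of other samples.

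From the counts, CPM was computed with TMM factors over all 12 libraries, and TPM with the deposited exon lengths. KO was compared with Het within each sex, from 6 libraries of 1 table, with edgeR 4.0.16 under R 4.3.3 and its quasi-likelihood F test (TMM, filterByExpr with a minimum count of 10, robust), with Benjamini-Hochberg adjustment over all genes. All 12 libraries, with 4 group means, were fitted together for the average and the difference of the sexes. Intervals are 95%. Alternatives were other size factors, no filter, DESeq2 1.42.0, limma 3.58.1 voom, each library left out and, chosen after seeing the data, total counts only and the counts of genes below 0. The edgeR test was tried on counts simulated gene by gene. That trial held no shifts shared by the genes of a library, so it does not cover such shifts. The members and lists were chosen with earlier results of these data known. Every member is accounted for, with values per library for the 2 smallest p of each group of genes in each sex, the catalytic pairs, Pomp, Psme1 and Psme2. Psmb2, Psmc6, Psmd5, Psmd8, Psmd14, Psme2b, Psma4, Tap1 and the called marker genes were added after their values were seen. Of 49 members, 42 had a RefSeq window.

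Libraries of the same group differed by more than counting noise in every pair, with 12.4 to 65.2 times the chi-square that noise alone gives.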

Additional observations from a re-analysis of the deposited data

How the results depend on the processing

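Under edgeR, 0 proteasome genes were called in each of the 4 comparisons. In females this was 1, Psmb6, without the filter on low counts and 1, Psmb6, with DESeq2, and with 1 library left out it ran from 0 to 4, the 4 being Psmb2, Psmb6, Psmc4 and Psmd12, all lower, without female Het165. In males it ran from 0 to 1 with 1 library left out, the 1 being Psme3 without male KO247. The share of all genes called under each alternative is not given here. These counts are therefore not read as a result about the family. The count stayed at 0 for the difference and the average under every alternative run. The median log2 fold change ran from -0.14 to 0.00 in females and from -0.24 to 0.03 in males with 1 library left out. Members below 0 ran from 25 to 38 in females and from 20 to 46 in males, the 20 without male KO255. With 1 library left out, base genes below 0 ran from 6 to 9 in females and from 4 to 9 in males, and lid genes below 0 from 2 to 6 in females and from 3 to 8 in males. Total counts only, chosen after seeing the data, moved the median of all genes in females to 0.06. No paired analysis was possible because the animal numbers are unique to each library.

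Of 672 alternatives for 28 named genes in 2 sexes, 637 kept direction and side of the threshold, 6 passed it, 0 lost a call and 29 turned sign, all for genes whose main log2 fold change was at most 0.16 in size. With 1 library left out, values ran from -0.091 to 0.23 for Pomp in males, -0.13 to 0.070 for Psma2 in females, -0.18 to 0.027 for Psma3 in males, -0.21 to 0.047 for Psmb10 in females and -0.35 to 0.18 in males, -0.24 to 0.18 for Psmb6 in males, -0.42 to 0.10 for Psmb9 in males, -0.78 to 0.11 for Psmc3ip in males and -0.15 to 0.10 for Psmd12 in males. They ran from -0.069 to 0.30 for Psme1 in females and -0.12 to 0.037 in males, -0.18 to 0.29 for Psme2 in males, -0.29 to 0.058 for Psme3 in females, -0.048 to 0.11 for Psme4 in females, -0.14 to 0.10 for Psmf1 in males and -0.077 to 0.27 for Psmg1 in males. Psma2 in females was 0.041 with total counts only, and Psmb9 in males was 0.027 with limma voom. The cause of these turns was not tested. Depth limits Psmb9, at 13 to 61 counts per library.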
